A study of Homo sapiens with 2 samples.

Results

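The imprinted control regions described here are 10 intervals of the human genome (hg19) known for parent-of-origin methylation at imprinted genes, which was not itself measured here, and they were chosen by name and position. They lie at H19, KCNQ1OT1, SNRPN, MEG3, PEG3, MEST, PLAGL1, PEG10, GRB10 and L3MBTL1. Together they hold 1707 CpGs of the reference, of which 1093 (64.03%) had at least 1 read in both libraries, out of 14699127 such CpGs in the whole series.

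Both samples came from HEK293T, a cultured line of human embryonic kidney origin, and were profiled by whole genome bisulfite sequencing (WGBS), in which an unmethylated cytosine is read as T and a methylated cytosine as C. The titles name 1 library as negative (Neg below) and the other as dCas9+3A+HOXA5. The dCas9+3A+HOXA5 cells carried a nuclease-dead Cas9 bearing SunTag peptides, the methyltransferase DNMT3A joined to an antibody fragment that binds these peptides, and a guide RNA against HOXA5, delivered by lentivirus and sorted for fluorescence. The labels attach the same treatment text, with collection at 30 days, to both libraries, while in the study the negative cells are non-transduced. With 1 library per group from 1 cell line there was no replicate check, and every test below compares these 2 libraries and not the conditions.

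An imprinted control region is methylated on the copy inherited from 1 parent and unmethylated on the other, and it governs which parental copy of the neighbouring genes is transcribed. Most such regions receive their methylation in the oocyte, whereas the H19 region receives it in sperm and the MEG3 promoter acquires it on the paternal copy after fertilization. The mark is kept through cell division by DNMT1 and by ZFP57, a zinc finger protein that binds the methylated hexamer TGCCGC, while CTCF binds the H19 region only when it is unmethylated.

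The H19 region is shown by its 6 matches to the CTCF core GGNGGCAG with a CG 1 base before it, all on the minus strand. The plus strand of hg19 is given, 5′ to 3′, with 20 bases to each side, and capitals mark the match and its CG.
H19 site A, chr11:2021178-2021228: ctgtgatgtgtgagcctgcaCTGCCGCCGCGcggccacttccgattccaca
H19 site B, chr11:2021584-2021634: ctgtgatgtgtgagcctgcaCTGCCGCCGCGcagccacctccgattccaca
H19 site C, chr11:2021990-2022040: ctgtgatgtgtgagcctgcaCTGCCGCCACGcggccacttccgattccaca
H19 site D, chr11:2023423-2023473: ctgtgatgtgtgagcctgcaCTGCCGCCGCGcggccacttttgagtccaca
H19 site E, chr11:2023824-2023874: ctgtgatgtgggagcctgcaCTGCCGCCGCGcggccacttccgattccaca
H19 site F, chr11:2024229-2024279: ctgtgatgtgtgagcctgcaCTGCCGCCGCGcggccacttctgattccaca
No such match occurred in the other 9 regions, and 8.1% of the 223403 tested 2.5-kb tiles of the genome held such a match, core and CG together, on either strand. On the plus strand the core includes TGCCGC in all 6 sites, so both motifs overlap there. The sites are near-identical repeats, and how reads that match several of them were placed is not known here.

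KCNQ1OT1 and GRB10 are shown by the 120-base window with most TGCCGC hexamers among those found in each of these regions. The plus strand is given, 5′ to 3′, and capitals mark each hexamer on either strand.
KCNQ1OT1, chr11:2720666-2720785: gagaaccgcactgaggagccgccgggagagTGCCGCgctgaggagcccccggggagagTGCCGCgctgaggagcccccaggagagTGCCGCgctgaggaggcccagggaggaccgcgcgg
GRB10, chr7:50849882-50850001: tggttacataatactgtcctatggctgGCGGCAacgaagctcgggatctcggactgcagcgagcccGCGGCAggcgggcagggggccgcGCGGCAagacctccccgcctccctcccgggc
The hexamer was matched 12 times in H19, 11 in PEG3, 8 in MEST, 8 in GRB10, 6 each in KCNQ1OT1, MEG3 and PLAGL1, 3 in SNRPN, 2 in L3MBTL1 and 0 times in PEG10. That gave 0 to 4.977 matches per 100 reference CpGs, against 0.9457 over the tested tiles, of which 34.37% held a match. A match is a description of these letters only, and no binding was measured.

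The end of the KCNQ1OT1 interval, where the 2 libraries lay farthest apart, is shown with its 22 CpGs in capitals, on the plus strand.
KCNQ1OT1 end, chr11:2721960-2722259: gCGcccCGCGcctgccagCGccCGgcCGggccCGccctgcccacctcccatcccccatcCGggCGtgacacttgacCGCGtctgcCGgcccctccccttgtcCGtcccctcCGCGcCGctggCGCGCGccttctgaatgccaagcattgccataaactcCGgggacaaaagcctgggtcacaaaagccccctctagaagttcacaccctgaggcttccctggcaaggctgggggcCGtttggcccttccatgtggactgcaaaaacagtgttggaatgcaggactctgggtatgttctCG

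Depth was low in both libraries. The mean listed CpG was covered by 3.795 reads (Neg) and 2.895 reads (dCas9+3A+HOXA5), and the regions held 4443 and 3250 reads at shared CpGs. Over all CpGs, 63.34% and 69.55% of reads were methylated. In the 4.5-kb window at the HOXA5 guide, 32 of 805 reads (3.975%) were methylated in Neg and 387 of 861 (44.95%) in dCas9+3A+HOXA5. Levels below are shares of methylated reads with 95% Wilson intervals, and differences are dCas9+3A+HOXA5 minus Neg in percentage points with 95% Newcombe intervals. A read is counted once at each CpG it covers. These intervals cover counting error only, and reads or CpGs on 1 fragment are not independent.

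None of the 10 regions differed by more than 20 points with an adjusted p under 0.01 (two-sided Fisher's exact test on reads, adjusted by the Benjamini-Hochberg method over all tiles and regions). By the same rule 3.84% of the 2.5-kb tiles were called higher and 1.33% lower in dCas9+3A+HOXA5, and among tiles at 30 to 70% in Neg these shares were 10.9% and 3.94%. With 10 regions, a count of 0 lies near such shares. At all shared CpGs no region differed by more than 10 points, and 4 were higher and 6 lower, while 153228 tiles were higher and 69874 lower, and at 30 to 70% in Neg 35127 and 17464. By Fisher's exact test 2 of 10 had an unadjusted p under 0.05, against 30.46% of all tiles. Among tiles at 30 to 70% in Neg 43.86% did, against 20% of the 5 regions in that range. Of these 5 regions 2 were higher and 3 lower. The median difference of the regions was -1.09 points, against 3.98 over all tiles, and the median absolute difference was 2.92 against 6.64. The regions held more CpGs and so more reads than tiles, at a median of 119 shared CpGs with 424 and 318 reads against 29 with 129 and 90, and sampling noise alone gives smaller differences over more reads.

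**Figure D1:**
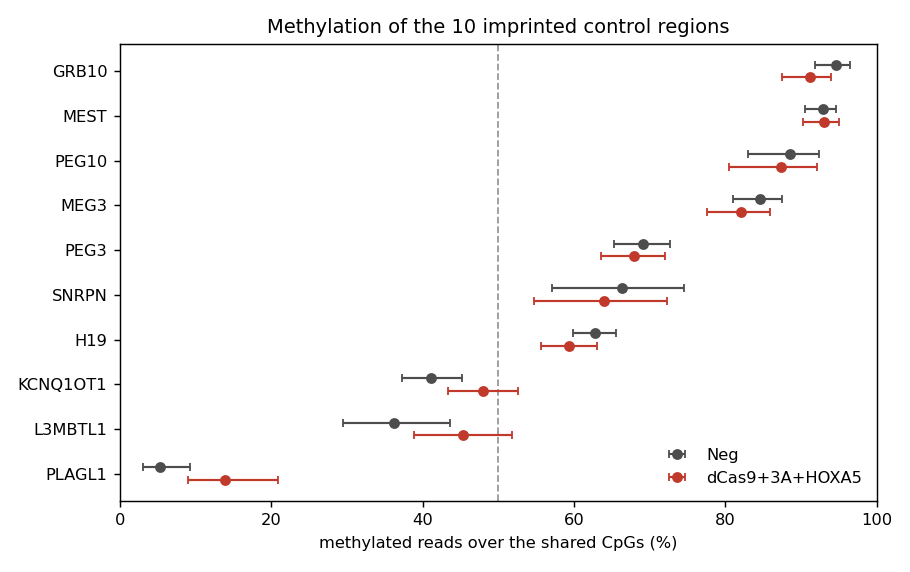
Share of methylated reads (%) at the shared CpGs of each region in Neg (grey) and dCas9+3A+HOXA5 (red), with 95% Wilson intervals as bars and a dashed line at 50%. The regions span 5.29 to 94.6% in Neg, and the order of the regions is shared by both libraries except that GRB10 and MEST change places.

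At all shared CpGs the levels fell into 3 ranges that held the same regions in both libraries. MEST, GRB10, PEG10 and MEG3 were above 80%, PLAGL1 was below 20%, and H19, KCNQ1OT1, SNRPN, PEG3 and L3MBTL1 were between 30 and 70%. The ranges shifted at CpGs with more reads. With a minimum of 3, PEG3 was at 71.6 and 72.6% (61 CpGs), PLAGL1 at 16 and 29.6% (10 CpGs), PEG10 at 84.2 and 71.1% (8 CpGs) and SNRPN at 69.6 and 85.7% (6 CpGs). With a minimum of 5, H19 was at 70.04 and 70.7% (35 CpGs), MEG3 at 87.3 and 71.2% (10 CpGs), PEG3 at 94.1 and 100% (6 CpGs), PLAGL1 at 11.1 and 37.5% (3 CpGs), PEG10 at 85.7 and 77.8% (3 CpGs) and SNRPN at 60 and 100% (1 CpG). Parental copies were neither told apart nor counted here, so 50% is a reference line and not an expected level. The Wilson interval held 50% in none of the regions in Neg, and in KCNQ1OT1 and L3MBTL1 in dCas9+3A+HOXA5. The widened interval held 50% in KCNQ1OT1 (32.6 to 50.3%) and SNRPN (46.1 to 82.0%) in Neg, and in KCNQ1OT1, SNRPN and L3MBTL1 in dCas9+3A+HOXA5. In order of level, neighbouring regions had overlapping counting intervals except at the steps from MEG3 to PEG3, from H19 to KCNQ1OT1 and from L3MBTL1 to PLAGL1, in both libraries. After the widening by dispersion given below, these intervals stayed apart at the 3 steps in Neg and overlapped at all 3 in dCas9+3A+HOXA5.

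Of the paternally methylated regions, H19 (chr11:2018812-2024740) lies inside annotated long isoforms of the H19 lncRNA gene and controls H19 and IGF2. In Neg 712 of 1135 reads were methylated, or 62.7% (59.9 to 65.5%), and in dCas9+3A+HOXA5 397 of 669, or 59.3% (55.6 to 63.0%). The difference was -3.39 points (-8.06 to 1.25, Fisher's exact test, adjusted p = 0.353). MEG3 (chr14:101290524-101293978) lies in the body of the MEG3 lncRNA gene and holds 14 of its transcript starts. It was methylated in 404 of 478 reads in Neg, or 84.5% (81.0 to 87.5%), and in 270 of 329, or 82.1% (77.6 to 85.8%), in dCas9+3A+HOXA5. The difference was -2.45 points (-7.85 to 2.70, Fisher's exact test, adjusted p = 0.611).

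Of the maternally methylated regions, 3 were above 80% at all shared CpGs. MEST (chr7:130130122-130134388), at a gene for a hydrolase-fold protein, was at 92.8% (90.4 to 94.6%, 543 of 585 reads) in Neg and 93.01% (90.3 to 95.01%, 426 of 458) in dCas9+3A+HOXA5. GRB10 (chr7:50848726-50851312), at a gene for an adaptor that restrains insulin receptor signalling, was at 94.6% (91.8 to 96.5%, 350 of 370) and 91.2% (87.5 to 93.9%, 280 of 307). PEG10 (chr7:94285537-94287960) holds the starts of SGCE and of the retrotransposon-derived gene PEG10, which lie on opposite strands. This region was at 88.5% (83.0 to 92.3%, 161 of 182) and 87.4% (80.5 to 92.1%, 111 of 127). Their differences were 0.19 points (-3.07 to 3.30), -3.39 points (-7.54 to 0.48) and -1.06 points (-8.96 to 6.14), and by Fisher's exact test the adjusted p was 1.0, 0.251 and 0.959.

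PLAGL1 (chr6:144328078-144329888), which holds the start of the lncRNA gene HYMAI within PLAGL1, a zinc finger gene, was the only region near 0. It was methylated in 11 of 208 reads in Neg, or 5.29% (2.98 to 9.22%), and in 18 of 130, or 13.8% (8.94 to 20.8%), in dCas9+3A+HOXA5. The difference of 8.56 points (2.27 to 15.9) gave p = 0.0088 before and p = 0.05 after adjustment (Fisher's exact test). Most of the methylated reads lay at 1 edge of the interval: in the last bin, 9 of 39 reads were methylated in Neg and 18 of 34 in dCas9+3A+HOXA5. In the 500-bp bin before it, 0 of 118 and 0 of 72 reads were methylated over 48 CpGs. These CpGs had 1 to 5 reads each in Neg and 1 to 3 in dCas9+3A+HOXA5, so the counts can come from few fragments. The Wilson bounds of 3.15 and 5.07% take the reads as independent, so higher shares are not excluded.

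SNRPN, PEG3, KCNQ1OT1 and L3MBTL1 were the maternally methylated regions at intermediate levels. SNRPN (chr15:25200004-25201976) holds the start of SNURF and lies in SNRPN, a gene for a small nuclear ribonucleoprotein. It was the thinnest, with 37 of 113 CpGs shared, and was at 66.4% (57.1 to 74.5%, 73 of 110) and 64.0% (54.7 to 72.3%, 71 of 111). PEG3 (chr19:57348493-57353271) holds the starts of ZIM2, PEG3 and MIMT1 and was at 69.1% (65.3 to 72.6%, 420 of 608) and 68.0% (63.6 to 72.1%, 314 of 462). Neither difference was resolved, at -2.40 points (-14.7 to 10.0) and -1.11 points (-6.75 to 4.46).

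KCNQ1OT1 (chr11:2719948-2722259) lies in an intron of the potassium channel gene KCNQ1 and holds the start of the antisense lncRNA KCNQ1OT1. Its level was 41.1% (37.3 to 45.2%, 244 of 593) in Neg and 47.9% (43.3 to 52.6%, 209 of 436) in dCas9+3A+HOXA5. The difference was 6.79 points (0.65 to 12.9), with p = 0.031 before and p = 0.119 after adjustment (Fisher's exact test). Over the central 50% of the interval its difference was -13.7 points, the opposite direction, and with a minimum of 3 reads per CpG it was 13.2 points. L3MBTL1 (chr20:42142365-42144040) lies in the body of L3MBTL1, a gene for a chromatin protein, and holds 19 of its transcript starts. Its level was 36.2% (29.4 to 43.6%, 63 of 174) and 45.2% (38.8 to 51.8%, 100 of 221), a difference of 9.04 points (-0.73 to 18.5, Fisher's exact test, adjusted p = 0.225), which was 20.3 points over the central 50% (adjusted p = 0.02), -2.04 with a minimum of 3 reads per CpG and 0.063 with a minimum of 5.

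**Figure D2:**
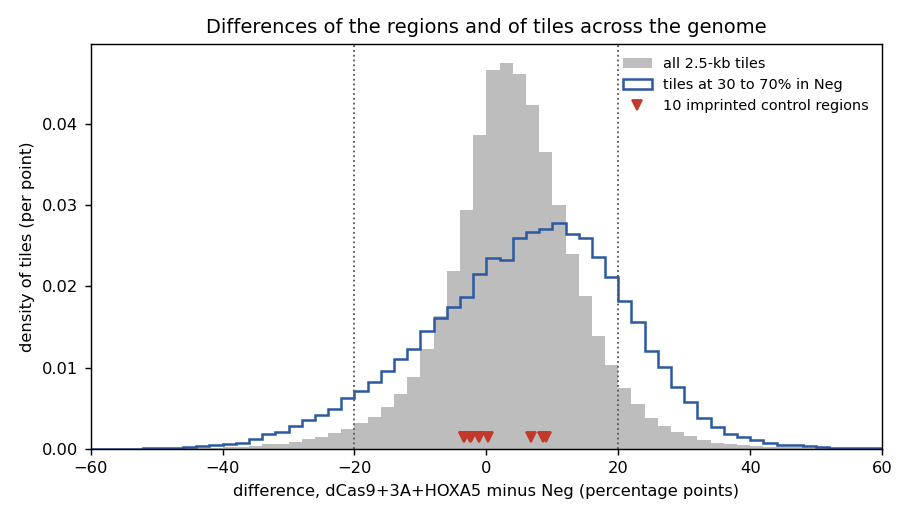
Density of the difference in level, dCas9+3A+HOXA5 minus Neg in percentage points, over all 2.5-kb tiles (grey) and over tiles at 30 to 70% in Neg (blue line), with the 10 regions as red triangles and dotted lines at a difference of 20 points either way. The tiles' median lies at 3.98 points, and the regions spread from -3.39 to 9.04 points around it.

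CpGs within most regions varied more than independent reads at a common level would. The dispersion, a chi-square over single CpGs divided by its degrees of freedom with 1 meaning even sampling, ran from 1.03 in KCNQ1OT1 to 2.31 in H19 in Neg, and from 1.52 in L3MBTL1 to 2.63 in SNRPN in dCas9+3A+HOXA5. In Neg the dispersion also lay near 1 in L3MBTL1 (1.08) and GRB10 (1.16). Over 100-bp windows it was 2.10 to 7.33 in Neg and 2.06 to 7.66 in dCas9+3A+HOXA5, so the counting intervals above are too narrow. In Neg the windows gave 5.15 in KCNQ1OT1, 3.18 in L3MBTL1 and 2.615 in GRB10. A value near 1 over single CpGs thus did not mean an even level along the interval. After widening by the 100-bp dispersion the difference interval held 0 in all 10 regions. It ran from -8.64 to 22.1 points in KCNQ1OT1, from -8.57 to 27.6 in PLAGL1 and from -9.60 to 27.0 in L3MBTL1. Where a CpG had 5 reads or more in each library, 12 of 12 in L3MBTL1 and 26 of 32 in KCNQ1OT1 lay between 20 and 80% in Neg, while 16 of 35 did so in H19, whose median CpG was at 80%. In dCas9+3A+HOXA5 the counts were 10 of 12, 18 of 32 and 17 of 35. Neighbouring CpGs can lie on the same reads, so these are not counts of independent CpGs. In L3MBTL1 several of them lie between positions 42143235 and 42143309, with 5 to 7 reads each in Neg.

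**Figure D3:**
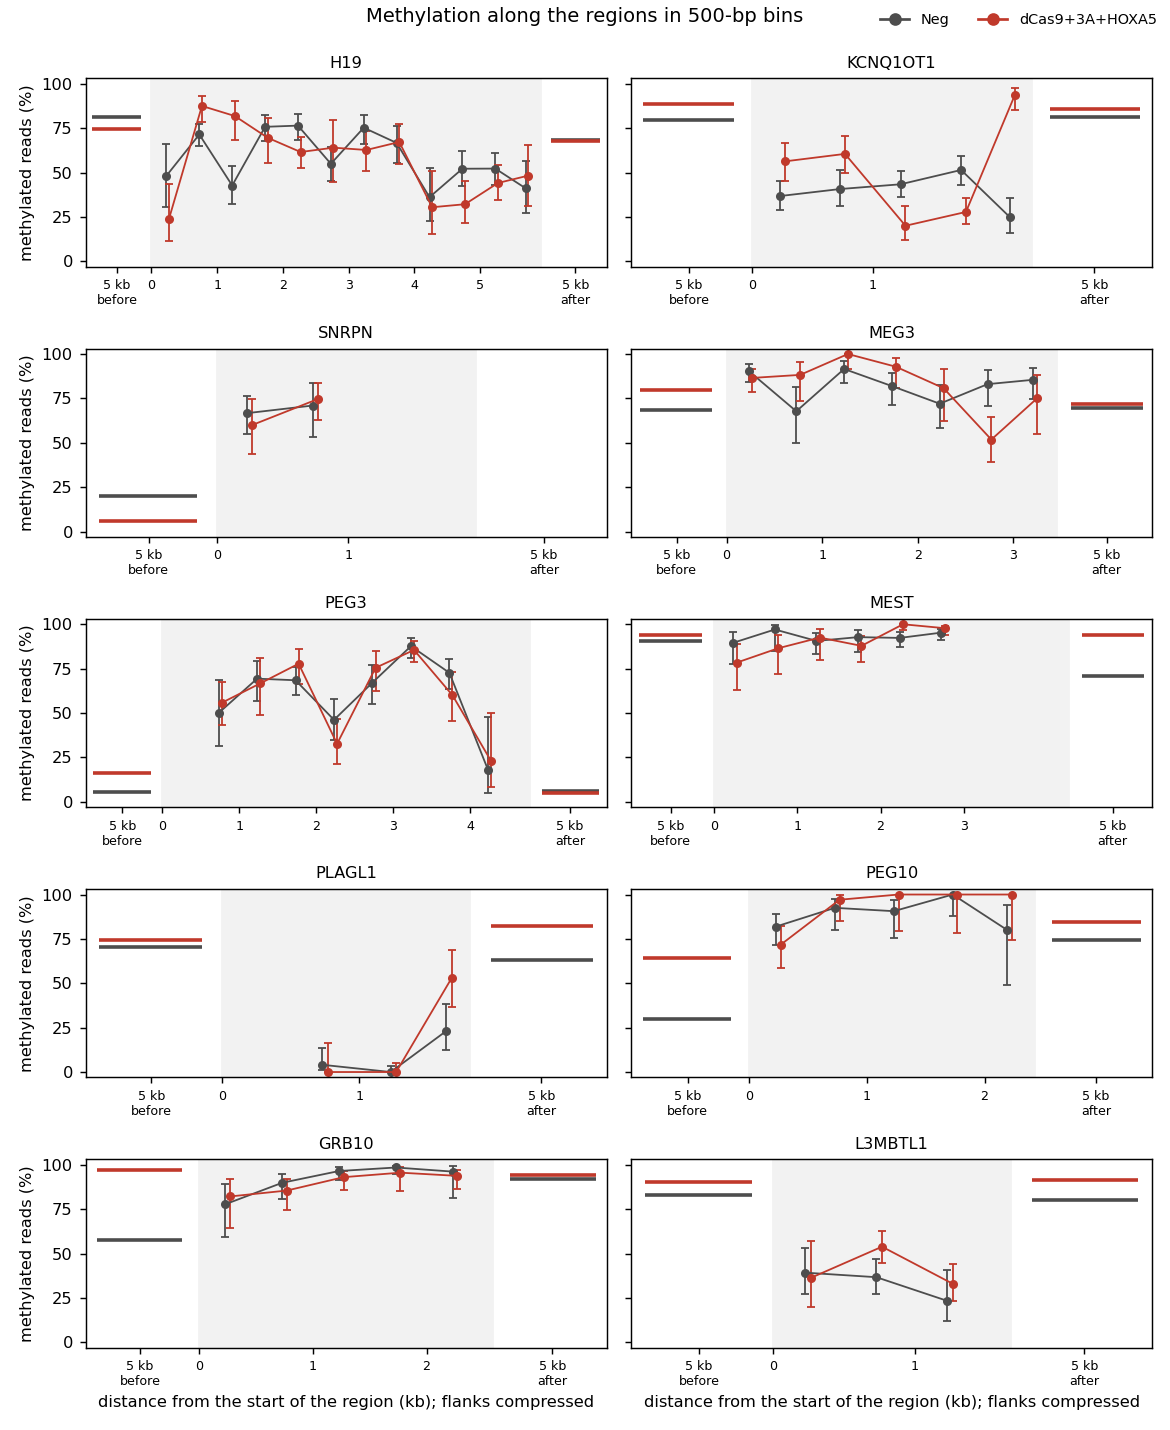
Methylated reads (%) in 500-bp bins along each region (points at bin centres, shaded interval, x axis in kb) for Neg (grey) and dCas9+3A+HOXA5 (red), with 95% Wilson intervals and the 5-kb flanks as horizontal bars, not to scale. Bins or flanks with fewer than 5 shared CpGs are not drawn, and in KCNQ1OT1 the profiles cross, the last bin being at 24.7% and 93.9%.

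Along KCNQ1OT1 the libraries differed in opposite directions. The first bin held 47 of 128 methylated reads in Neg and 45 of 80 in dCas9+3A+HOXA5, and the next 35 of 86 and 49 of 81, so the share was higher in dCas9+3A+HOXA5 in both. The following pair was lower in dCas9+3A+HOXA5, at 72 of 166 against 13 of 65, and 72 of 140 against 40 of 144. The bin at the end of the interval, which holds the sequence shown above, was at 18 of 73 reads (24.7%) and 62 of 66 (93.9%), a difference of 69.3 points (55.4 to 78.5, Fisher's exact test, adjusted p = 6.24e-15). Its 15 shared CpGs had 3 to 7 reads each in Neg and 1 to 7 in dCas9+3A+HOXA5, so these counts can come from few fragments. The bin before it differed by -23.7 points (-34.2 to -12.3, Fisher's exact test, adjusted p = 0.00248). The tests and intervals of bins and promoters were not widened by dispersion, and their p-values treat such counts as independent. In the hexamer window shown above, 13 of 14 reads were methylated in Neg and 0 of 8 in dCas9+3A+HOXA5, although the bin around it was higher in dCas9+3A+HOXA5. Its 8 shared CpGs had 1 read each in dCas9+3A+HOXA5 and 1 to 3 in Neg, so those 8 calls can come from 1 read.

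Across the regions, 47 bins had at least 10 shared CpGs, of which 2 were called higher and 1 lower by the same rule, while 2.35% of 500-bp tiles were called higher and 1.08% lower. The other called bin lay in H19, 1000 bp from the start, with 35 of 82 methylated reads in Neg and 36 of 44 in dCas9+3A+HOXA5. They differed by 39.1 points (21.6 to 52.5, Fisher's exact test, adjusted p = 0.00135). The MEG3 bin at 2500 bp, with 44 of 53 and 29 of 56 reads, differed by -31.2 points and missed the rule (Fisher's exact test, adjusted p = 0.0135). The median absolute difference of region bins was 8.43 points, against 7.19 in 500-bp tiles, but among bins and tiles at 30 to 70% in Neg it was 9.21 against 16.3. With at least 5 CpGs it was 8.60 against 10.02 over all bins and tiles, and 9.32 against 19.9 over those at 30 to 70%. With at least 10 CpGs only 18 bins lay at 30 to 70% in Neg. Bins and tiles were not matched in reads, and sampling noise alone gives smaller differences over more reads. In the other 7 regions the bin farthest from no difference was at 89.6 and 78.4% in MEST, 23.1 and 52.9% in PLAGL1, 36.7 and 53.8% in L3MBTL1, 80 and 100% in PEG10, 46.2 and 32.7% in PEG3, 66.7 and 60% in SNRPN, and 89.9 and 85.5% in GRB10.

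The sequence features were read for methylation beside these bins. At TGCCGC CpGs pooled over the regions, 123 of 165 reads (74.5%) were methylated in Neg and 87 of 124 (70.2%) in dCas9+3A+HOXA5, while other CpGs were at 66.8% and 67.5%. Without KCNQ1OT1, whose hexamer CpGs held 15 of 20 and 0 of 10, the pool was at 108 of 145 (74.5%) and 87 of 114 (76.3%), so the direction of the pool turned, and it joins regions of very different levels. In GRB10 the window shown above was at 48 of 50 and 35 of 41. The window with most hexamers of all regions, in MEST with 4, is not printed and was at 11 of 11 and 10 of 10. At H19 sites A to F, methylated reads in the windows printed above were 28 of 40, 29 of 29, 18 of 21, 8 of 15, 3 of 5 and 9 of 17 in Neg. In dCas9+3A+HOXA5 they were 12 of 25, 3 of 3, 18 of 20, 3 of 7, 4 of 4 and 0 of 16. Site F was thus the only one of the 6 with no methylated read in dCas9+3A+HOXA5. There its 4 CpGs had 4 reads each and the 3 CpGs of site B had 1 each. These calls can therefore come from 4 reads at site F and 1 read at site B. The fewest mismatches between the HOXA5 guide and any site before an NGG in the regions were 6 to 8, and GRB10, the nearest of the regions on the target's chromosome, lies 23.7 Mb from it.

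Flanking 5-kb stretches differed from the regions by locus, and of 19 flanks with at least 5 shared CpGs 15 had a higher and 4 a lower level in dCas9+3A+HOXA5, while 153228 of the 223403 tiles were higher and 69874 lower. Both flanks of KCNQ1OT1 were above it, at 79.8 and 81.4% in Neg and 88.6 and 85.6% in dCas9+3A+HOXA5. Those of L3MBTL1 were above their region too, at 83.0 and 80% and at 90.1 and 91.7%. The flanks of PLAGL1 were likewise above it, at 70.4 and 63.2% in Neg and 74.2 and 82.5% in dCas9+3A+HOXA5. PEG3 stood above its flanks, which were at 5.56 and 6.25% in Neg and 16.3 and 4.76% in dCas9+3A+HOXA5. Both flanks of H19 were also above it, at 81.4 and 68.4% in Neg and 74.5 and 67.5% in dCas9+3A+HOXA5. The flank before SNRPN was at 20 and 5.88%. The flank before PEG10 was at 29.8 and 64.2%, that before GRB10 at 57.9 and 97.1% and that after MEST at 70.7 and 93.9%, each higher in dCas9+3A+HOXA5.

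Read depth relative to the autosomal mean was compared between libraries, and a change of copy number cannot be told apart from a change of depth. Over 1 Mb to each side this depth ran from 0.519 at SNRPN to 1.15 at H19 in Neg. In dCas9+3A+HOXA5 it ran from 0.587 to 1.33 at the same 2 regions. The ratio of dCas9+3A+HOXA5 to Neg over 1 Mb was 1.07 to 1.16 at all 10 regions. Within the regions the ratio ran from 0.749 in PLAGL1 to 1.70 in L3MBTL1, and the part of depth in the levels of these regions was not tested.

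Promoters of genes around the regions and at other imprinted loci, taken as 1 kb around the annotated gene start, were tested with the same rule. Among 33 tested neighbours of the regions 1 was called higher and 1 lower, and among 23 tested at other imprinted loci 2 were higher and 1 lower, while 2.47% of all 31894 promoters were called higher and 1.21% lower. The windows of KCNQ1OT1, SNURF, PEG3, ZIM2, MIMT1, MESTIT1, HYMAI, PEG10 and SGCE overlap the regions themselves. PEG3 and ZIM2 have the same counts, so the 33 are not all separate. MKRN3, in the SNRPN domain, was at 25% (14 of 56 reads) and 64.9% (37 of 57), and USP29, in the PEG3 domain, at 61.7% (171 of 277) and 35.4% (69 of 195). At the other loci MCTS2 was at 27.5% (44 of 160) and 74.7% (65 of 87), ZDBF2 at 1.85% (2 of 108) and 26.9% (14 of 52), and PPIEL at 65.4% (68 of 104) and 37.4% (49 of 131). The adjusted p by Fisher's exact test over all promoters was 0.000911 for MKRN3, 1.69e-06 for USP29, 2.16e-10 for MCTS2, 0.000133 for ZDBF2 and 0.00085 for PPIEL, but PPIEL differed by only -12.5 points, against -28.0, with a minimum of 3 reads per CpG and 5 CpGs per promoter. With promoters of 2 kb USP29 differed by -14.2 points and was not called, while PEG10, whose promoter overlaps its region, was called at 22.1 points and HM13 at -20.4. None of the 15 tested promoters of imprint maintenance factors was called. By Fisher's exact test 3 of them had an unadjusted p under 0.05, against 20.6% of all promoters. These were CTCFL at 60 and 91.4%, NLRP2 at 58 and 32.3%, and SETDB1 at 11.5 and 29.3%, whose adjusted p was 0.000903 by Fisher's exact test but whose difference was under 20 points. The promoter of ZFP57 had no shared CpG. The median difference was -1.23 points in the neighbours, 1.31 at other loci, -0.02 in the factors and 0.71 in all promoters.

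**Figure D4:**
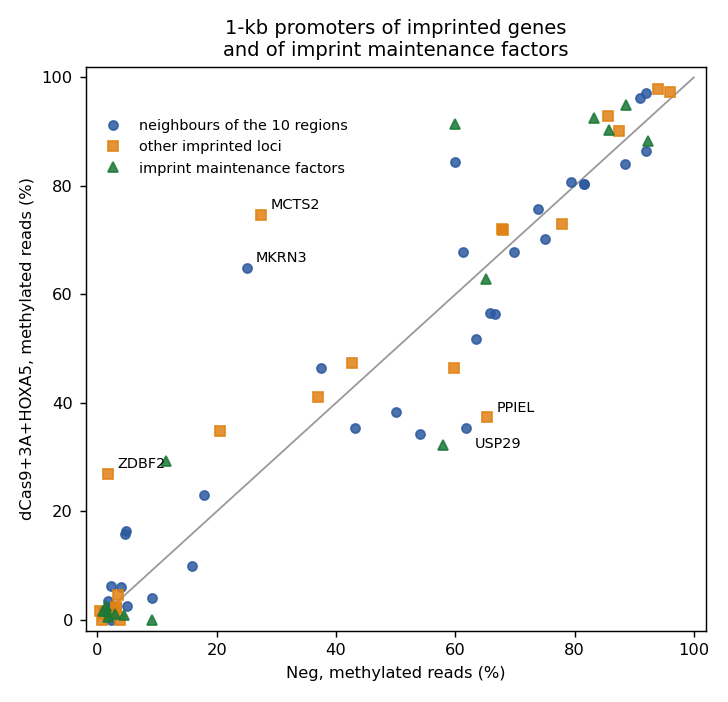
Methylated reads (%) in the 1-kb promoters of the neighbours (blue), other imprinted loci (orange) and imprint maintenance factors (green), Neg on the x axis and dCas9+3A+HOXA5 on the y axis, with the line of equality. The 5 called promoters are named, and MCTS2 lies farthest above the line at 27.5 and 74.7%.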

How the data were processed

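WGBS of 1 Neg and 1 dCas9+3A+HOXA5 library of HEK293T cells was analysed. Per the submitters' processing notes, the authors aligned reads to hg19 with BSMAP 2.90. Per the file headers, each CpG has a count of C reads, a count of C or T reads, and an estimated count that allows for C-to-T variants. The authors divided the C count by the estimated count to give a fraction. How duplicates and multiply aligned reads were handled was not given in the sources used here.

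Regions were taken by hg19 coordinates. A CpG needed at least 1 read in both libraries. Reads were summed per region, per 2.5-kb tile with at least 20 shared CpGs (tiles overlapping the regions left out), per 500-bp bin or tile with at least 10 and per 1-kb promoter with at least 10. They were compared by two-sided Fisher's exact test with Benjamini-Hochberg adjustment, and the test was tested on simulated data. The simulated counts were independent, so the simulation does not show how the test behaves where CpGs share a fragment. Regions were adjusted together with the 2.5-kb tiles, bins together with the 500-bp tiles, and promoters over all promoters. A call needed a difference over 20 points and an adjusted p under 0.01, the thresholds of the study for islands. Python 3.11.15, numpy 2.4.6, scipy 1.17.1, pandas 2.3.3 and numba 0.67.0 were used. The genome was GRCh37, which has the coordinates of hg19, with GENCODE annotation lifted to it.

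All 10 regions were named, with the 500-bp bin farthest from no difference among those with at least 5 shared CpGs, and every called promoter of the gene lists. Other bins and the sequence windows were described after their values were seen. The members and gene lists were chosen with earlier results of these data known. Of 28 listed genes at other imprinted loci 27 were in the annotation. Alternatives were other read minimums, the mean of the deposited fraction, the estimated count as reads, the centre of the interval, deep CpGs left out, and other tile and promoter sizes. The 100-bp dispersion, the widened intervals, the bin tests and the hexamer pool without KCNQ1OT1 were added after seeing the data.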

Additional observations from a re-analysis of the deposited data

How the results depend on the processing

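No paired analysis was possible because the groups hold 1 library each, and leaving a library out would empty its group. No region was called in the settings that had a test, but the mean of the deposited fraction has none, and with a minimum of 5 reads SNRPN rests on 1 CpG, PLAGL1 and PEG10 on 3, GRB10 on 5 and PEG3 on 6, so little can be read from the lack of calls there. Of 60 recomputed region differences 44 kept their sign and 16, in 9 regions, changed sign, and 11, in 6 regions, were over 10 points, and the cause was not tested. Over the central 50% of the interval the difference was -13.7 points in KCNQ1OT1, 4.82 in SNRPN, 3.84 in MEG3, 0.74 in PEG3, -1.43 in PLAGL1 and 7.69 in PEG10, and with its sign kept 20.3 in L3MBTL1 (Fisher's exact test, adjusted p = 0.02). With a minimum of 3 reads it was 16.1 in SNRPN, 1.002 in PEG3 and -2.04 in L3MBTL1, and with its sign kept 13.2 in KCNQ1OT1 (Fisher's exact test, adjusted p = 0.0114), 13.5 in PLAGL1 and -13.2 in PEG10. With a minimum of 5 reads it was 0.63 in H19, 40.0 in SNRPN (1 CpG) and 5.88 in PEG3, and with its sign kept 12.4 in KCNQ1OT1, 0.063 in L3MBTL1, -16.1 in MEG3 (10 CpGs) and 26.4 in PLAGL1 (3 CpGs). As the mean of the deposited fraction over CpGs it was -0.12 in KCNQ1OT1, 0.90 in PEG3, -0.37 in MEST and 7.20 in PEG10, and with its sign kept -18.4 in SNRPN. The share of tiles called higher was 2.09% with at least 50 CpGs per tile and 6.78% at a difference above 10 points, and the share called lower was 0.865% with a minimum of 5 reads and at least 5 CpGs per tile. With a minimum of 3 reads and at least 5 CpGs per promoter, 2 of 46 imprinted promoters were called, MCTS2 and USP29, in place of 5 of 56, PPIEL was tested at -12.5 points and not called, and MKRN3 and ZDBF2 were not tested. With promoters of 2 kb 6 of 64 were called: USP29 lost its call (-14.2 points), and HM13 (-20.4) and PEG10 (22.1, against -2.05 at 1 kb) gained one. The PEG10 promoter was at 11.2 points in the setting of 3 reads. The median dispersion over 100-bp windows was 4.39 (Neg) and 4.60 (dCas9+3A+HOXA5), against 1.74 and 1.70 over CpGs. Coverage of 3 and 2 reads at the median CpG limits the resolution of single CpGs.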
